A study of Mus musculus with 3 samples.

Results

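Wnt ligands are secreted, lipid-modified glycoproteins that bind Frizzled receptors together with LRP5, LRP6, ROR or RYK co-receptors on neighbouring cells. Some act through beta-catenin, and others mainly through pathways of cell polarity and movement. In the developing lung, signals pass between the mesenchyme, where the T-box factor TBX5 is made, and the airway epithelium: Wnt2 and Wnt2b from the mesenchyme act on the epithelium, and Wnt7b from the epithelium acts on the mesenchyme.

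The 8 Wnt ligand genes described here are Wnt2, Wnt2b, Wnt4, Wnt5a, Wnt5b, Wnt9a and Wnt11, grouped as mesenchymal, and Wnt7b as epithelial. They were chosen by name, out of 19 Wnt ligand genes in the annotation, with earlier results of these data known, so their counts are no independent evidence beside those of all genes or of other ligands. The grouping is not a measurement of these data. As background, Wnt5a and Wnt11 are also made outside the mesenchyme. A TBX5 peak was given to a ligand when its summit, the position of highest signal, lay inside the gene, or when the nearest end of any protein-coding gene, within 100 kb, was an end of the ligand gene. By this rule the ligands held 22 of the 28381 peaks in the deposited list, 19 at the 7 mesenchymal ligands and 3 at Wnt7b.

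The peaks came from chromatin immunoprecipitation and sequencing (ChIP-seq) with an antibody to TBX5 in lungs taken whole from E14.5 embryos of the CD-1 mouse strain, with 2 ChIP libraries and 1 input library of unprecipitated chromatin, 1 lung to each replicate. All animals were of 1 outbred strain, with no mutant, no treatment and no second stage or tissue to compare. The titles name lung for the 3 libraries, while another label, the source, gives heart for the second ChIP library and the input. The data are 1 list for the series on build mm10, so no value belongs to a single library, no spread between libraries could be measured and the depth is unknown. Nothing below was therefore tested, and all comparisons are descriptions of 1 list. A peak list shows binding and not expression. Among loci of defining markers, peaks stood at 6 of 6 lung mesenchyme genes (1 of them Wnt2 itself), at 3 of 6 lung epithelium genes (0 at Nkx2-1, Sftpc and Cdh1) and at 3 of 7 cardiomyocyte genes (0 at Nppa, Myh6, Tnnt2 and Actn2), where 41.7% of all protein-coding genes had one. Among the 5000 peaks of the list with the highest -log10 q were some at 4 of the 6 mesenchyme genes (Tbx4, Foxf1, Pdgfra and Tcf21), at the epithelial gene Foxa2 (20.7-fold) and at the cardiomyocyte genes Ryr2 (29.5-fold) and Nkx2-5 (15.0-fold), against 11.9% of all genes. Which of the libraries gave these peaks, and the part of any heart tissue in them, was not tested.

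Each peak carries the fold enrichment at its summit over the local background and the -log10 of a q-value, both as given by the authors' caller. The 5000 peaks with the highest -log10 q are called strong. The last of them had a -log10 q of 21.3, as had the next peak below it after rounding. Nearest to this line among the ligand peaks were a Wnt11 peak at 29.1, inside it, and another Wnt11 peak at 19.2, outside it.

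All 8 ligands had a peak, where 41.7% of the 21631 protein-coding genes did, but only Wnt2b and Wnt11 had a strong one, where 11.9% of all genes did. Genes with more sequence to themselves can collect more peaks. The territory of a gene, the stretch in which the rule gives it a peak, ran from 53.7 kb (Wnt9a) to 139 kb (Wnt7b) over the ligands. Of the 6155 protein-coding genes with a territory in that range, 49.7% had a peak and 13.4% a strong peak. With only the 50% of peaks that had the highest -log10 q, 4 ligands (Wnt2, Wnt2b, Wnt9a and Wnt11) had one, where 26.8% of all protein-coding genes and 31.8% of those in the same range of territory did. By fold, the 22 peaks were somewhat lower than the list as a whole. Their median fold was 5.38 (quartiles 4.74 and 6.58, range 3.77 to 19.9), against 6.27 over the whole list (quartiles 5.07 and 9.22), and 7 of the 22 lay above the median of the list. Strong peaks made up 4 of the 22 (18.2%, exact 95% binomial interval 5.19 to 40.3%), next to 17.6% of all peaks.

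**Figure D1:**
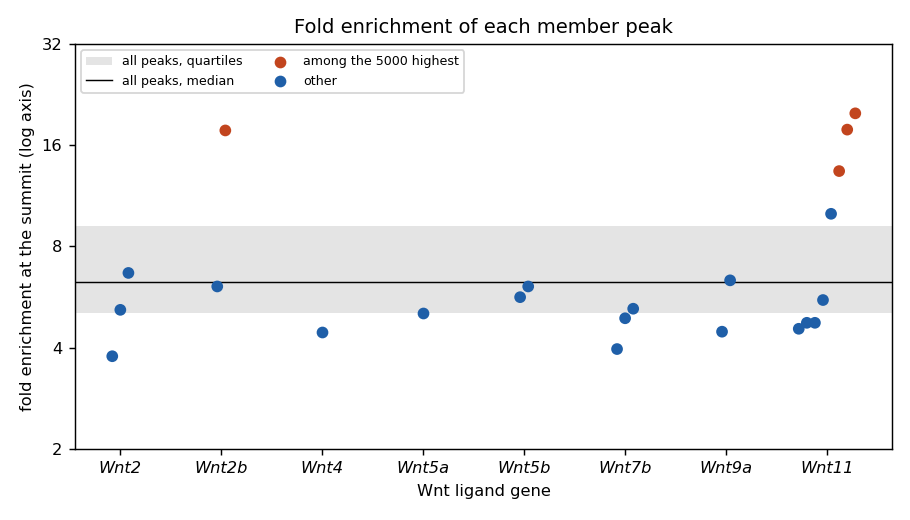
Fold enrichment at the summit (log axis) of each of the 22 peaks, 1 point per peak, by ligand gene, with the median and quartiles of all 28381 peaks as a line and a band. Wnt11 and Wnt2b hold the 4 strong peaks, from 13.4 to 19.9-fold, and the peaks of the other 6 ligands lie between 3.77 and 6.67-fold.

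For 6 of the ligands, RefSeq gives 9 promoter windows of 300 bases, from 250 before a transcript start to 50 after it (assembly GRCm38.p6, that of build mm10). Wnt5a and Wnt7b are not among them. A peak overlapped 1 of the 9 windows, that of Wnt2, where 17.6% of the windows of all protein-coding genes were overlapped. Windows with neither a base under a peak nor a T-box half-site (AGGTGTG or its reverse complement) are not printed, save the second of Wnt11. Those that follow are the Wnt2 window, the 2 with a half-site and the second Wnt11 window. All run 5′ to 3′ on the strand of the gene.

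The Wnt2 window (chr6:18030396-18030695, minus strand) has in capitals the 128 bases that lie under a peak.
Wnt2: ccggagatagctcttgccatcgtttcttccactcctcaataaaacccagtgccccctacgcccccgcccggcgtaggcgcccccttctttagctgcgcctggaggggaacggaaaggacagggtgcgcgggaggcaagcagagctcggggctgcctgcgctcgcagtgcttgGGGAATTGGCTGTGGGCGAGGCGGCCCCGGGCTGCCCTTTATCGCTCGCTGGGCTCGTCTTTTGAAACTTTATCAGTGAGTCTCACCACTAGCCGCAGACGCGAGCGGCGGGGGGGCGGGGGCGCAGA
The Wnt2b window (chr3:104961660-104961959, minus strand) begins 453 bases downstream of the strong Wnt2b peak. It has in capitals a T-box half-site, CACACCT, which reads AGGTGTG on the other strand, 152 bases before the start.
Wnt2b: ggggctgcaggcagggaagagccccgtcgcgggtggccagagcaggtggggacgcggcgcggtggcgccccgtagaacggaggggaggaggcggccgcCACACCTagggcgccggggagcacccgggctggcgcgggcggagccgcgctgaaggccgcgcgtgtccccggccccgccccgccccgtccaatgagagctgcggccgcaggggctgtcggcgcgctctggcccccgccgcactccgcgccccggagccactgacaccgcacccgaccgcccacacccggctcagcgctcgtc
The second Wnt11 window (chr7:98838595-98838894, plus strand) lies between 2 peaks, 393 bases above the end of the peak of 19.9-fold and 11 bases below the start of one of 4.74-fold, and no base of it is under a peak.
Wnt11: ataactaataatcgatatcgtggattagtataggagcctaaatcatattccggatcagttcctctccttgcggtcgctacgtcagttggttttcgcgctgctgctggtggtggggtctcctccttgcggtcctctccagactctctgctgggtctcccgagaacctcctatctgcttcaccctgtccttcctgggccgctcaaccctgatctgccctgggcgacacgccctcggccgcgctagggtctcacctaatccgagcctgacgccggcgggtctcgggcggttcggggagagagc
A Wnt5b window (chr6:119449337-119449636, minus strand) has the same half-site in capitals, 45 bases before the start, and no peak of the list in it.
Wnt5b: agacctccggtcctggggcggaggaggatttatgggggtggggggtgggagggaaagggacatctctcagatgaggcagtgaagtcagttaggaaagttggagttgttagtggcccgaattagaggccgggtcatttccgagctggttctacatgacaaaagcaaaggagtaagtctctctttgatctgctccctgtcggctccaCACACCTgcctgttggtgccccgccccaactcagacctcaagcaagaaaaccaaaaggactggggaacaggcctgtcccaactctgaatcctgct

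The spelling AGGTGTG or its reverse complement stood in 2 of the 9 ligand windows and in 5.36% of the 21045 windows of protein-coding genes. A second spelling of the T-box half-site that overlaps the first, GGTGTGA, stood in 0 of the 9 and in 3.67% of all. The GATA spelling AGATAA and the NKX2 spelling CACTTAA stood in 0 of the 9, and in 9.68% and 2.14% of all windows. The TCF/LEF motif CTTTGAT, searched because beta-catenin acts through TCF/LEF factors, stood in 2 of the 9, at Wnt5b and at the first Wnt11 start, and in 3.25% of all. Both strands were read each time, and other spellings of these motifs were not searched. A match describes letters and is no evidence of a bound site, and the sequence under the other peaks was not used here.

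Wnt2, with Wnt2b, sets aside the lung field in the foregut endoderm and acts through beta-catenin. It spans 47.3 kb on chromosome 6, from 17985474 to 18032772, and held 3 peaks, all inside the gene and none strong. The peak from 18007426 to 18007614 had 3.77-fold enrichment and a -log10 q of 2.15, close to the bottom of the list. The second, from 18030314 to 18030523, had 5.18-fold enrichment, and its summit lay 33 bases downstream of the RefSeq start whose window is printed above. The third, from 18031675 to 18031900, had 6.67-fold enrichment and lay 1.32 kb upstream of that start, still inside the gene as annotated, whose last base is 1.01 kb further on. Binding was thus listed at and just before the Wnt2 start, at levels about that of the middle of the list or below it.

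Stronger peaks stood near Wnt2 but closer to another gene. Within 100 kb of Wnt2 there were 8 further peaks, 2 of them strong. One lay in St7, the next gene below, 86.8 kb from Wnt2 (17898489 to 17899080, 26.4-fold). The other lay 0.492 kb from the end of St7 and 42.9 kb from Wnt2 (17942351 to 17942718, 12.9-fold). A peak of 10.8-fold from 17963465 to 17963720 lay between the genes, 20.6 kb from St7 and 21.9 kb from Wnt2, and so was given to St7 by a narrow margin. On the other side, 2 peaks of 5.18 and 9.41-fold lay in Asz1. The list does not say which gene a peak acts on.

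Wnt2b, the paralogue of Wnt2 with a shared role in lung specification, spans 16.9 kb on chromosome 3, from 104944805 to 104961709. Its strong peak, from 104962413 to 104963233, was the widest of the 22 at 821 bp, with 17.7-fold enrichment and a -log10 q of 46.6, rank 1787 in the list. The summit lay 1.30 kb upstream of the Wnt2b start in the promoter table. A second peak, from 104956092 to 104956310, lay inside the gene with 6.08-fold enrichment, 5.52 kb downstream of the start. A further strong peak, with a -log10 q of 33.5, lay 56.1 kb below Wnt2b inside St7l, a gene that overlaps its downstream end (104888540 to 104888878), and 3 peaks of 5.61 to 9.77-fold lay at Cttnbp2nl above it. Both specification ligands thus had a peak 1.30 to 1.32 kb upstream of a start, strong at Wnt2b and of 6.67-fold, just above the median of the list, at Wnt2. The Wnt2b peak lay outside the gene and the Wnt2 peak inside it as annotated. Of all protein-coding genes, 25.9% had a summit within 2 kb of the first or last base.

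Wnt11, a ligand known from kidney branching and from cell movement, held more peaks than any other ligand here. It spans 19.7 kb on chromosome 7, from 98835084 to 98854747, and had 8 peaks over 35.7 kb, 3 of them strong. Of all protein-coding genes, 641 (2.96%) had 8 or more peaks and 404 (1.87%) had 3 or more strong ones. In the order of the chromosome, 5 peaks lay upstream of the gene with 5.54, 10.0, 4.55, 13.4 and 4.74-fold enrichment, from 19.4 kb to 6.79 kb before the first base. The strong one among these ran from 98822910 to 98823261, 12.0 kb before the first base. Inside the gene came a peak of 19.9-fold from 98837770 to 98838201, with the highest fold of the 22, whose summit lay 0.848 kb upstream of the second RefSeq start. A peak of 4.74-fold followed 136 bases downstream of that start. The last, from 98851142 to 98851710, lay 3.41 kb before the end of the gene with 17.8-fold enrichment and the highest -log10 q of the 22, 66.8, rank 957 in the list.

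Strong peaks were also dense beyond Wnt11, in Uvrag, an autophagy gene and the next gene above it. Within 100 kb of Wnt11 there were 10 more peaks, 4 of them strong, and the 4 lay inside Uvrag. The highest, 56.7 kb from Wnt11 (98911226 to 98911660), had 37.8-fold enrichment and a -log10 q of 113, above every peak given to a Wnt ligand. The other 3 had 11.1, 15.3 and 15.1-fold enrichment. Counting any peak within 100 kb, Wnt11 had 18, and 7 of them were strong. The share of all protein-coding genes with as many by this count is not given here.

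**Figure D2:**
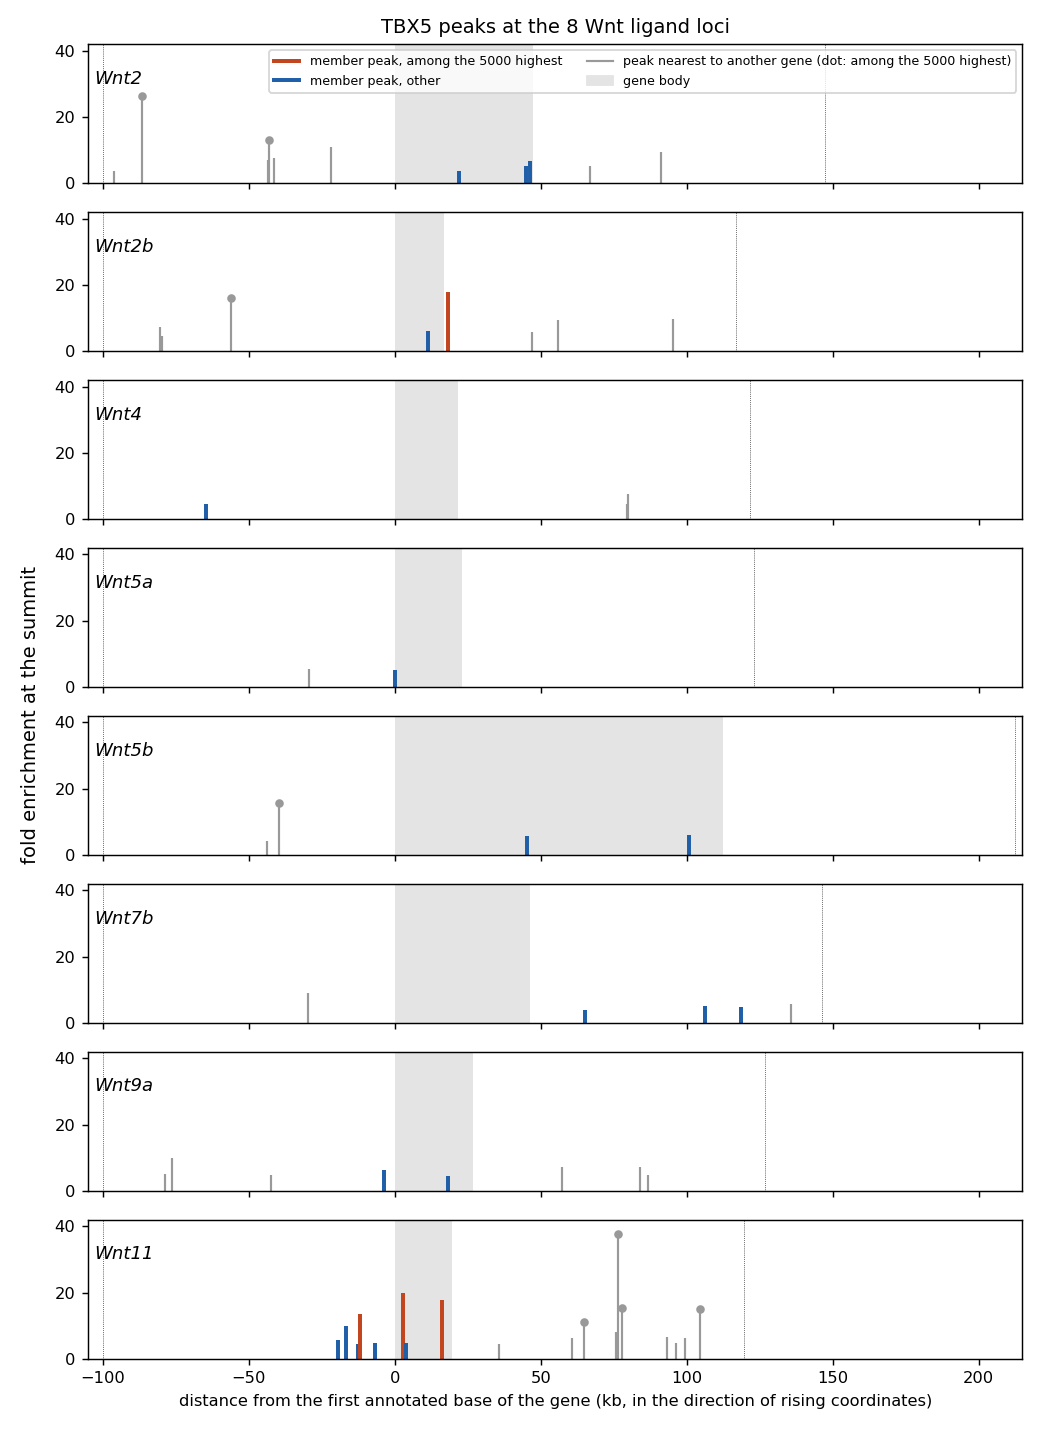
Peaks within 100 kb of each ligand gene (dotted lines), with the fold enrichment at the summit on the y axis and the distance in kb from the first annotated base, towards rising coordinates, on the x axis. Red and blue bars are the 22 ligand peaks, strong and other, grey bars are the 37 peaks nearer to another gene (dots mark the strong ones), and the shaded block is the gene. Within 100 kb lie 18 peaks at Wnt11, of which 8 are given to it, against 3 at Wnt4 and 2 at Wnt5a, of which each was given 1.

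Wnt5a, which signals through ROR receptors and restrains distal branching in the lung, spans 22.9 kb on chromosome 14, from 28504543 to 28527448. It had 1 peak, from 28504657 to 28504932, 239 bases inside its first annotated base, with 5.07-fold enrichment and a -log10 q of 5.13. Wnt5a was the only ligand with a summit within 1 kb of the first or last base of the gene, where 22.6% of all protein-coding genes had one. This depends on the window: with the starts of the promoter table added, 3 ligands (Wnt2, Wnt5a and Wnt11) had one, against 24.8% of all genes, and within 2 kb of the first or last base 3 (Wnt2, Wnt2b and Wnt5a) did, against 25.9%. The nearest strong peak, of 11.9-fold from 28630478 to 28630867, lay 103 kb above the gene, just past the limit of 100 kb, with Wnt5a as its nearest protein-coding gene. With a limit of 1 Mb, Wnt5a had 4 peaks.

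Wnt5b, the close paralogue of Wnt5a, is the longest of the 8 genes at 112 kb, on chromosome 6 from 119432531 to 119544824. It had 2 peaks inside the gene, of 5.65-fold (119477762 to 119478042) and 6.08-fold (119533229 to 119533461). Both were nearer to the end of a gene that lies within Wnt5b, 1.80 kb from Fbxl14 and 4.63 kb from Gm52875, and they lay 10659 and 11042 bases from the nearest Wnt5b start of the promoter table. By the nearest end alone, Wnt5b had 0 peaks. The nearest strong peak, of 15.8-fold, lay 39.7 kb away inside Adipor2.

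Wnt4, known for its part in the kidney tubule and the female gonad, spans 21.9 kb on chromosome 4, from 137277635 to 137299501. Its 1 peak, from 137212997 to 137213401, lay 64.6 kb before the start with 4.46-fold enrichment, nothing lay inside the gene, and with a limit of 50 kb it had 0 peaks. The nearest strong summit was 149 kb away. Wnt9a, a ligand of joint formation, spans 26.7 kb on chromosome 11, from 59306849 to 59333552, next to Wnt3a, whose end is 16.1 kb below it. A peak of 6.34-fold and a -log10 q of 12.0 lay 3.86 kb upstream of its start (59302857 to 59303234), and one of 4.46-fold lay inside the gene (59324854 to 59325114). The Wnt3a gene held 1 peak of 4.87-fold. The nearest strong summit to Wnt9a was 173 kb away.

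Wnt7b is the epithelial ligand of the set, known for driving growth of the lung mesenchyme and its vascular smooth muscle. It spans 46.4 kb on chromosome 15, from 85535437 to 85581821. Its 3 peaks all lay above the last annotated base, at 18.9 kb (85600574 to 85600763, 3.96-fold), 59.7 kb (85641438 to 85641774, 5.22-fold) and 72.2 kb (85653959 to 85654147, 4.89-fold). None was strong, none lay inside the gene, and all were nearer to the end of a long non-coding RNA gene, AU022754 or D130051D11Rik, than to Wnt7b, where the nearest annotated end was that of a non-coding gene or pseudogene for 51.9% of all peaks. A higher peak of 9.13-fold lay 29.6 kb below Wnt7b (85505683 to 85505934), but nearer to 7530416G11Rik. The nearest strong summit was 327 kb away, in the matrix gene Fbln1 (85207782 to 85208099, 11.8-fold).

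Set beside Wnt7b, most mesenchymal ligands had peaks inside the gene and some had higher ones, while the number of peaks for the sequence available did not separate them from it. Of the 7 mesenchymal ligands, 6 had a peak inside the gene (all but Wnt4), and Wnt7b had none. A peak stood inside 28.9% of all protein-coding genes and inside 36.6% of those whose length was in the range of the 8. For Wnt5b, both inner peaks were nearer to an end of Fbxl14 or Gm52875 than to one of its own. For 5 of the 7, the highest peak had a higher -log10 q than that of Wnt7b, the exceptions being Wnt4 (5.01) and Wnt5a (5.13) against 6.26. That Wnt7b peak had rank 18053 among the 28381 peaks (63.6% of the way down), so most peaks of the list stood above it. Of the 19 mesenchymal peaks, 11 were above 5.22-fold, the highest at Wnt7b, and 8 were not. That fold lies between the lower quartile (5.07) and the median (6.27) of all peaks, so most of the list was also above it. Strong peaks made up 4 of 19 (21.1%, exact 95% binomial interval 6.05 to 45.6%) at the mesenchymal ligands and 0 of 3 at Wnt7b, which allows up to 70.8%. Without Wnt11 the share was 1 of 11 (9.09%, interval 0.23 to 41.3%).

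The mesenchymal ligands had 2.70 peaks per 100 kb of territory (exact 95% Poisson interval 1.63 to 4.22) and Wnt7b 2.16 (0.445 to 6.31). Without Wnt11 the mesenchymal value was 1.81 (0.902 to 3.23), below that of Wnt7b, so by this density the order of the 2 compartments rests on Wnt11. With any peak within 100 kb counted, Wnt2 (4.45), Wnt2b (3.69) and Wnt9a (3.53) also stood above Wnt7b (2.03). Wnt4, Wnt5a and Wnt5b stood below it. Over all protein-coding genes together there were 1.29 peaks per 100 kb. By gene, the density was 8.50 at Wnt11 (3.67 to 16.7), 3.86 at Wnt2, 3.73 at Wnt9a, 2.59 at Wnt2b, 2.16 at Wnt7b, 1.51 at Wnt5b, 0.758 at Wnt4 and 0.736 at Wnt5a (0.0186 to 4.10). Every one of the 8 intervals overlapped every other. With all peaks within 100 kb of the gene counted, the interval of Wnt11 (8.19, 4.86 to 13.0) lay above those of Wnt7b (2.03, 0.659 to 4.74), Wnt4 (1.35, 0.279 to 3.95), Wnt5b (1.28, 0.349 to 3.28) and Wnt5a (0.897, 0.109 to 3.24), and overlapped those of Wnt2, Wnt2b and Wnt9a. These intervals cover counting error only, and since peaks cluster they are too narrow.

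**Figure D3:**
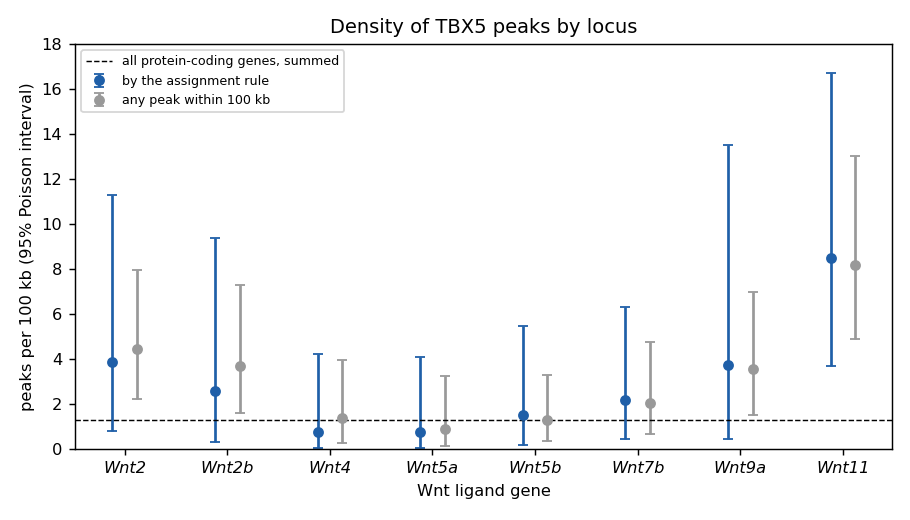
TBX5 peaks per 100 kb at each ligand gene, by the assignment rule (blue) and for any peak within 100 kb (grey), with exact 95% Poisson intervals. The dashed line at 1.29 is the value summed over all protein-coding genes by the assignment rule, so it compares with the blue points only. Wnt11 is highest on both counts, at 8.50 and 8.19, and the blue intervals of all 8 genes overlap.

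Distance to a strong summit, whatever gene it was given to, ordered the ligands as Wnt11 (inside the gene), Wnt2b (1.30 kb), Wnt5b (39.7 kb), Wnt2 (42.9 kb), Wnt5a (103 kb), Wnt4 (149 kb), Wnt9a (173 kb) and Wnt7b (327 kb). The median over the 8 was 73.0 kb, against 240 kb over all protein-coding genes (quartiles 75.3 and 613 kb). For 4 of the 8 ligands it was within 100 kb, where this held for 29.7% of all genes. Wnt7b was the farthest of the 8 and lay between the median and the upper quartile of all genes.

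The rest of the pathway gives the ligands a scale. Of the 11 other Wnt ligand genes, 3 had a peak and 0 a strong one: Wnt8b (8.48-fold), Wnt9b (6.61-fold) and Wnt3a. Their median territory was 40.9 kb, shorter than the 113 kb of the 8 ligands described. The part of territory in this difference was not tested. Of the 2 genes that ready ligands for export, the Wnt carrier gene Wls had 2 peaks and the acyltransferase gene Porcn had 0. The Wls peak with the higher -log10 q had 6.60-fold enrichment.

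Some receptor genes held higher peaks than any ligand. Of 15, 10 had a peak and 5 a strong one (33.3%, exact 95% binomial interval 11.8 to 61.6%). For these and the groups below, the shares over all protein-coding genes were 41.7% and 11.9%. In the range of territory of the ligands they were 49.7% and 13.4%. The highest receptor peaks stood inside Ror1 (84.7-fold) and Ror2 (37.0-fold), which encode receptors for Wnt5a. Ror1 and Ror2 held 15 and 19 peaks in territories of 420 and 263 kb, above the 53.7 to 139 kb of the ligands. The part of territory in the height of their peaks was not tested. Of 13 inhibitor genes, 10 had a peak and 3 a strong one, and by -log10 q the highest were at the secreted antagonists Sfrp2 (62.6, 20.2-fold) and Wif1 (27.5, 11.7-fold). The strong peak of Sfrp1, another secreted antagonist, was higher than that of Wif1 by fold (12.2) and lower by -log10 q (25.1). Of 7 agonist genes, 5 had a peak and 2 a strong one, Rspo2 (19.8-fold) and Rspo3 (12.2-fold), whose R-spondin products raise the level of Wnt receptors. Of 17 genes of signal relay and transcription, 14 had a peak and 7 a strong one, and by -log10 q the highest were at Nkd1 (69.9, 24.7-fold), an inhibitor, and the TCF gene Tcf7 (53.4, 14.3-fold). Compared by the fold of each gene's peak of highest -log10 q, Bcl9 (17.7), Axin2 (16.9) and Lef1 (15.2) stood above Tcf7. The ligands, with 2 of 8 (25.0%, interval 3.19 to 65.1%), lay within the intervals of these groups, and no difference between groups was tested.

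**Figure D4:**
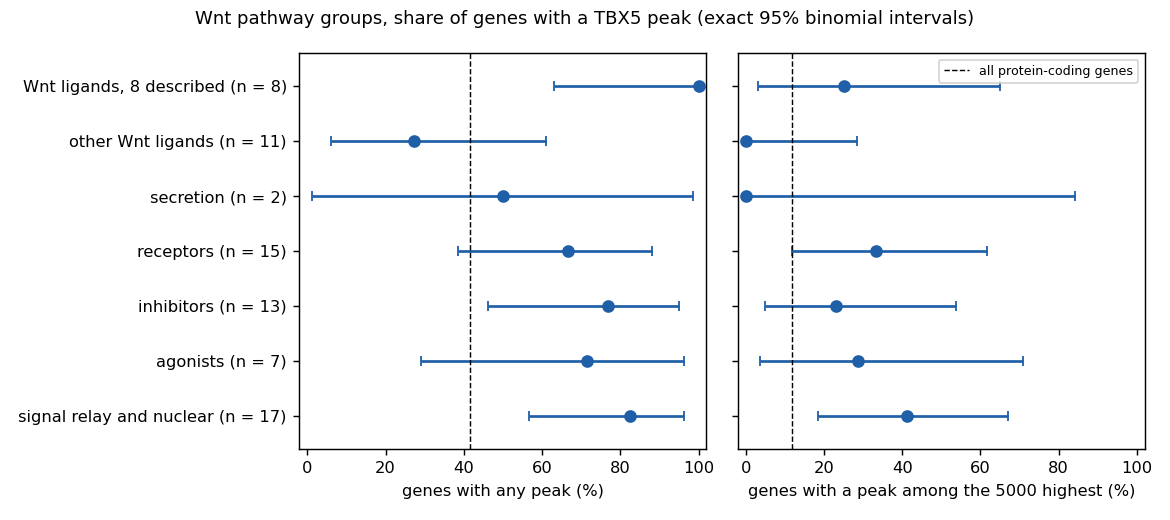
Share of genes (%) with any TBX5 peak (left) and with a strong peak (right) in 7 groups of Wnt pathway genes, with exact 95% binomial intervals and the share over all protein-coding genes as dashed lines at 41.7% and 11.9%. All 8 ligands described have a peak, against 3 of the 11 other ligands, while for strong peaks the interval of the 8 spans 3.19 to 65.1% and takes in the dashed line.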

How the data were processed

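TBX5 ChIP-seq of whole E14.5 lungs (2 ChIP libraries, 1 input) was represented by 1 peak list. Per the submitters' processing notes, Bowtie2, SAMtools and MACS2 and build mm10 were used. Versions, settings, any merging of the ChIP libraries and the use of the input as control are not given in the sources read for this work. Depth is unknown. The deposited list has no header. By its layout, the authors' caller gave a fold enrichment, a ratio of summit signal to local background, and the −log10 of a q-value. The score deposited by the authors was the integer part of 10 times −log10 q in 98.8% of peaks. The last column, as deposited, is the summit offset. Its sum with the start gives each position, printed 1-based.

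Genes came from RefSeq (GRCm38.p6): 21631 protein-coding genes, with first and last base and no exons, so exons, introns and UTRs were not separated. Starts and strands of 6 of the 8 ligands came from the RefSeq promoter table. A summit was given to a ligand whose body held it, or whose end was the nearest protein-coding end within 100 kb. Strong peaks are the 5000 with the highest −log10 q. Named besides the ligands were their neighbouring genes and the 2 genes with the highest peak of each pathway group, and other genes were named after their values were seen. The assignment was checked on simulated data. Shares carry exact 95% binomial and densities exact 95% Poisson intervals, for counting error only (scipy 1.17.1). No test was made. The members and lists were chosen with earlier results of these data known. Alternatives tried were other limits, assignments, ranks and windows.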

Additional observations from a re-analysis of the deposited data

How the results depend on the processing

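The number of ligands with a peak was 4 in place of 8 with only the 50% of peaks highest by −log10 q, and 6 to 8 under the other 5 settings. Total peaks were then 7 in place of 22, were 13 when ends of all annotated genes competed, and 59 with any summit within 100 kb. Over the 6 settings Wnt7b had 0 to 5 peaks, Wnt11 3 to 18, Wnt2 1 to 11 and Wnt4 0 to 3. Ligands with a strong peak numbered 1 (Wnt11) with the 1000 highest peaks, and 4 in place of 2 with any summit within 100 kb, which added Wnt2 and Wnt5b. That setting was chosen after seeing the data. With a limit of 1 Mb they were Wnt2b, Wnt5a and Wnt11. Ligands with a summit at the first or last base numbered 3 in place of 1 within 2 kb, 0 when the peak had to cover that base, and 3 (Wnt2, Wnt5a and Wnt11) within 1 kb when the starts of the promoter table were added, also chosen after seeing the data. The median fold of the 22 peaks was 5.38, and 5.54 without the 1 summit near a gene end. In each case the setting itself changes which peaks count. No library could be left out, since the list has no value per library. No paired analysis was possible because the list gives no value for a single library. Unknown depth limits how low a peak could be called.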

Other observations

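Of the 22 peaks, 13 had as their nearest annotated end that of a non-coding gene or pseudogene, as had 51.9% of all peaks. At Wnt11 this held for 7 of 8 peaks, with the long non-coding RNA genes Gm39054 and Gm33770 as the nearest at 6 of them, and at Wnt7b for all 3. The remaining Wnt11 peak of the 7, of 5.54-fold from 98815607 to 98815800, had its summit 0.006 kb from an end of the tRNA gene n-TPagg7.

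Many peaks of the list carried identical values. Of all peaks, 27233 (96.0%) shared both their fold and their −log10 q, exactly as deposited, with at least 1 other peak, as did 4255 of the 5000 strong peaks (85.1%). Among the ligand peaks this held for 17 of 22, and for 0 of the 4 strong ones. The inner Wnt2b peak and a Wnt5b peak both had 6.08-fold enrichment and a −log10 q of 7.30, and the Wnt4 peak and the inner Wnt9a peak both had 4.46-fold and 5.01. Ranks among such peaks are ties.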
